A study of Mus musculus with 6 samples.

Results

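The cell cycle genes described here comprise cyclins, cyclin-dependent kinases (Cdks), mitotic and replication genes, E2f1, Rb1 and Cdk inhibitors. They were chosen by gene symbol, with earlier results of these data known. Of the 37 genes, 36 have at least 1 probe set in the array annotation, for 81 of the 34945 probe sets that carry a single symbol. Ccnb1 was not matched. RNA came from the heart apex of 6 male mice aged 6 to 7 weeks and was hybridised to Affymetrix arrays, with 1 heart per array. Each animal carried 1 floxed and 1 deleted (delta) allele of Fog2 (official symbol Zfpm2, a cofactor of GATA transcription factors), written Fog2flox/delta in the labels. In 3 animals, here called Cre hearts, an alpha MHC Cre transgene, whose promoter is active in cardiomyocytes, was present, and the other 3, labelled no Cre, are called control hearts. The control hearts were therefore not wild type. As no heart combined Cre with unfloxed Fog2, an effect of Cre itself and one of the deleted gene cannot be told apart here.

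Progress through the cell cycle is driven by Cdks that are switched on by cyclins. D-type cyclins with Cdk4 and Cdk6 start the inactivation of Rb1, which frees E2f factors to transcribe replication genes. Cyclin E with Cdk2 and cyclin A then carry the cell through DNA synthesis, and cyclin B with Cdk1 drives mitosis. Inhibitors of the Cip/Kip and Ink4 families, here Cdkn1a, Cdkn1b, Cdkn1c and Cdkn2c, bind and restrain these kinases. Most mouse cardiomyocytes leave the cycle soon after birth, so mitotic transcripts of an adult heart can also come from other cells.

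Cdkn1a, which encodes the Cdk inhibitor p21, rose with Cre by 1.44 ± 0.18 (SE) on the log2 scale. Cenpa, the histone H3 variant of centromeres, fell by 1.08 ± 0.15 in the brightest of its 3 probe sets. Its 2 dim probe sets overlapped between the groups and differed in direction. Sgo2a, a shugoshin that protects cohesin at centromeres, fell by 1.03 ± 0.16. In addition, 1 of 3 probe sets of Cdk6 rose and 1 of 7 of Ccnd2 fell. None of the tested probe sets of the cyclin E, replication or E2f1 and Rb1 groups passed limma (2 at an unadjusted p under 0.05, both of replication genes). All probe sets of the proliferation genes Mki67, Top2a, Aurka, Aurkb and Birc5 were too dim to be tested.

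Each value is a log2 signal, and a difference is the mean of the Cre hearts less that of the control hearts (n = 3 and 3). A probe set was tested with limma if its mean over the 6 arrays was among the highest 60% of the table (about 5.16 or more), and it passed at an adjusted p under 0.05 (Benjamini-Hochberg over 27022 tested probe sets). Of the 81 probe sets, 42 from 27 genes were tested, and 39 were left out as dim. Of the 42, 2 rose and 3 fell, together 11.9%, against 5.23% of all tested probe sets (3.43% higher and 1.79% lower). Because members were chosen with earlier results known, setting their shares beside those of all probe sets, here and below, does not test the group. Without the first or without the second Cre heart, 3 of the 42 passed. Counted once per gene through its brightest probe set, 1 gene rose and 2 fell of 27 tested (11.1%), against 6.24% of 13062 genes (4.2% higher and 2.04% lower). Without the filter on dim probe sets, limma called 0 of the 81, against 0.611% of all 45037 (0.502% higher and 0.109% lower). At an unadjusted p under 0.05, for which no share of all probe sets was counted, there were 16 of the 81. With the variance allowed to follow the signal (trend and robust settings), an alternative chosen after seeing the data, 4 rose and 3 fell of the 81 without the filter, or 8.64%, against 4.07% of all (2.66% higher and 1.41% lower). The median difference was 0.05 over the 81 probe sets and -0.02 over all 45037. At the filter's limit, a probe set of Mcm5 with a mean of 5.34 was the dimmest tested member, and one of Mcm2 with a mean of 5.11 the brightest left out.

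Array medians lay between 5.72 and 5.81, and over the tested probe sets arrays correlated at 0.980 to 0.987 within groups and at 0.964 to 0.973 between them. The targeted gene, Zfpm2, has 2 probe sets that moved in opposite directions: 8.86, 8.83 and 8.95 in control and 10.71, 10.48 and 10.50 in Cre hearts for one, 6.34, 6.40 and 6.65 in control and 5.46, 5.61 and 5.65 in Cre hearts for the other. The sources used here do not give the exons they measure, so neither alone checks the labels. Of 10 fibroblast markers 6 rose and 0 fell, and their mean was 9.69 to 9.88 in control and 10.42 to 10.69 in Cre hearts. No cardiomyocyte (0 of 10 at an unadjusted p under 0.05), endothelial (1 of 10) or macrophage marker (0 of 10) passed limma, and these list means overlapped between groups. The mean of the cardiomyocyte markers was 13.45 to 13.48 in control and 13.46 to 13.51 in Cre hearts, near the array maxima of 13.97 to 14.00. Of 7 erythroid markers 5 were tested, of which Rhd fell and 0 rose. The mean with Cre was higher in 5 of the 7 and lower in 2. Their list mean did not overlap between groups, at 6.16 to 6.26 in control and 6.35 to 6.50 in Cre hearts. Of 6 epicardial markers Upk1b rose and 5 were dim. None passed limma of 8 T and B cell markers (6 dim, 0 at an unadjusted p under 0.05) or of 9 tested smooth muscle and pericyte markers (1 at an unadjusted p under 0.05). This scale has no true zero, so no marker can be called absent, and the part of these cells in the results that follow was not tested.

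Among the Cdk inhibitors, Cdkn1a is a transcriptional target of p53 and restrains several Cdks. Its brighter probe set (1424638_at) gave 6.62, 7.15 and 7.18 in the control hearts, against 8.59, 8.51 and 8.17 in the Cre hearts. Every Cre heart lay above every control heart, and the difference of 1.44 ± 0.18 had a limma adjusted p of 0.0026. In this bulk RNA, more cells with the transcript and more transcript per cell cannot be told apart. The dim probe set of Cdkn1a gave 2.84, 4.08 and 4.49 in control and 5.79, 5.19 and 5.01 in Cre hearts, again without overlap. The call of the brighter one held with any 1 heart omitted (adjusted p 0.0030 to 0.023), and among the alternatives it was lost only without the filter (0.071).

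The other Cdk inhibitors did not pass. Cdkn1c, which encodes p57, had signals of 9.29, 9.37 and 9.26 in control and 8.83, 8.62 and 9.21 in Cre hearts. The groups did not overlap, but 1 Cre heart lay close to the control hearts, and the difference was -0.42 ± 0.16 (limma adjusted p 0.20). For Cdkn2c, the gene of the Ink4 protein p18, control hearts had 8.79, 8.86 and 8.68 and Cre hearts 8.87, 8.996 and 8.70. These groups overlapped, with a difference of 0.08 ± 0.12. The brighter probe set of Cdkn1b, the gene of p27, differed by -0.08 ± 0.16 and the dimmer one by 0.15 ± 0.18, both with overlapping groups.

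**Figure D1:**
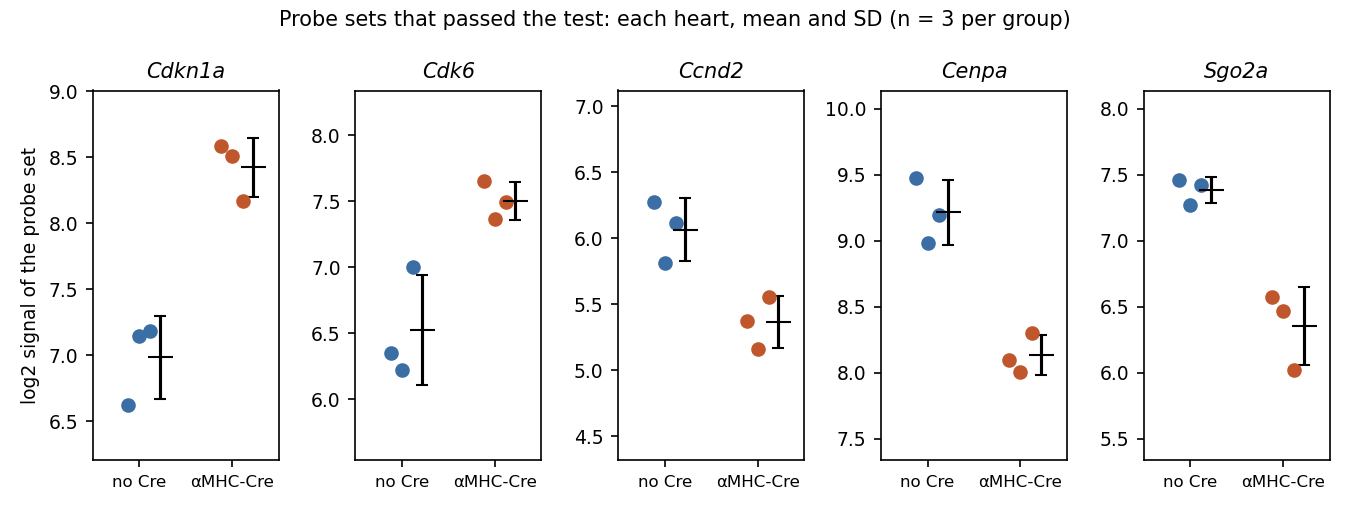
The log2 signal of the 5 probe sets that passed the test, for each of the 3 control hearts (no Cre) and the 3 Cre hearts, with the mean and SD. In no panel do the groups overlap: Cdkn1a and Cdk6 are higher with Cre, and Ccnd2, Cenpa and Sgo2a are lower.

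Cenpa and Sgo2a were the 2 mitotic genes that fell. Cenpa marks the place on a chromosome where the kinetochore is built. Its brightest probe set (1450842_a_at) gave 9.47, 8.98 and 9.19 in control and 8.10, 8.00 and 8.30 in Cre hearts. All Cre hearts lay below all control hearts, with a difference of -1.08 ± 0.15 (limma adjusted p 0.0047, and 0.0058 to 0.033 with 1 heart omitted). A dim probe set of Cenpa gave 4.82, 5.52 and 5.25 in control and 4.86, 4.58 and 4.78 in Cre hearts, and the dimmest 2.46, 2.63 and 3.94 against 3.19, 3.51 and 3.48. Both of these overlapped, and the mean with Cre was lower in the first of them and higher in the dimmest, so the 3 probe sets of Cenpa differ in direction.

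Sgo2a has a single probe set (1437370_at), with 7.46, 7.27 and 7.42 in control and 6.58, 6.47 and 6.02 in Cre hearts. The groups were separated, and the difference was -1.03 ± 0.16 (limma adjusted p 0.0072, and 0.012 to 0.032 with 1 heart omitted). Without the filter on dim probe sets, the calls of Cenpa (adjusted p 0.080) and Sgo2a (0.098) were lost. With 64 added to the unlogged signal, which damps changes of low signals, the difference was -0.66 for Sgo2a.

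Promoters of many mitotic genes carry a CHR element, bound by the MuvB core of the DREAM complex, and CCAAT boxes, bound by NF-Y. RefSeq promoter windows (GRCm38.p6, 250 bases before to 50 after a start site) were searched on both strands for 3 motifs. CHR was searched with the letters TTTGAA, with the letters TTCGAA and with the letters TTTAAA, and the last 2 read the same on both strands. CCAAT was searched by its own letters. E2F sites were searched with the letters TTTCGCG, with the letters TTTCCCG, with the letters TTTGGCG and with the letters TTTGCCG. No motif contains another, and matches may overlap. Windows were found for 29 of the 37 genes (34 windows), and not for Aurkb, Ccna2, Ccnd1, Ccnd2, Ccne2, Cdkn1c, Mcm4 or Rb1. CHR letters stood in 17 of 34 windows (50%), against 28.8% of all 32851 windows in the table. CCAAT stood in 24 (70.6%, against 37.4%) and E2F letters in 8 (23.5%, against 6.7%). Cenpa and Sgo2a, which both fell, differ in these letters, and their windows are shown beside that of Cdk1, the mitotic kinase, which holds all 3 motifs. Capitals mark the motif matches.
Cenpa, chr5:30666636-30666935, plus strand: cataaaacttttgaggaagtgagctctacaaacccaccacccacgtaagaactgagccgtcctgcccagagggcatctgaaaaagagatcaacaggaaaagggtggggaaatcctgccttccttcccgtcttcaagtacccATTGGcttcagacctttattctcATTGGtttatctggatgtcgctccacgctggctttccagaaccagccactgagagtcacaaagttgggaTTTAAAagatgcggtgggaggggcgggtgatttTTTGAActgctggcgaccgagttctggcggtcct
Sgo2a, chr1:57985090-57985389, plus strand: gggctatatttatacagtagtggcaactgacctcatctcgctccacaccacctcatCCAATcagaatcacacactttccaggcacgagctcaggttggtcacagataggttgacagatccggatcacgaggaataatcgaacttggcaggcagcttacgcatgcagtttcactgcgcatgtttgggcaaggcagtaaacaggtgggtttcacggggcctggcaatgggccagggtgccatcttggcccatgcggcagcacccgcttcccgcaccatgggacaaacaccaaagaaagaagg
Sgo2a, chr1:57995724-57996023, plus strand: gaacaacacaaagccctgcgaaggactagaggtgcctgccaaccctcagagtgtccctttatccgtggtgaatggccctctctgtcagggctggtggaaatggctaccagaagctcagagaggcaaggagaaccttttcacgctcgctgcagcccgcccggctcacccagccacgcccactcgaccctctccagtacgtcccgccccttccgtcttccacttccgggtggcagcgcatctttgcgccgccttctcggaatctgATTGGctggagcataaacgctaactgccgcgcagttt
Cdk1, chr10:69352863-69353162, minus strand: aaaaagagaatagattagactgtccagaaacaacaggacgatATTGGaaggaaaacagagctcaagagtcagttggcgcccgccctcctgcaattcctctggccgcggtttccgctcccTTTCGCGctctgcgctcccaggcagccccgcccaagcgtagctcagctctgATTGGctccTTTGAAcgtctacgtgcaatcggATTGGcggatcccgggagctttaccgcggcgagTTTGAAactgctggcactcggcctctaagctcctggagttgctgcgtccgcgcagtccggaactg
The Cenpa window holds 2 CHR matches and 2 CCAAT boxes, and the Cdk1 window 2 CHR matches, 3 CCAAT boxes and 1 E2F match. Both Sgo2a windows hold 1 CCAAT box and no CHR or E2F letters. By group, CHR letters stood in 9 of 12 windows of the mitotic and proliferation genes, in 3 of 3 of the A- and B-type cyclins and Cdk1, in 3 of 7 of the replication genes and in 0 of 4 of the D-type cyclins and their kinases. E2F letters stood in 4 of 7 windows of the replication genes. The windows of Cdkn1a, and that of Cdk6, of which 1 of 3 probe sets rose, hold none of the 3 motifs. These matches are letters in a window, not measured binding.

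The other mitotic genes with a tested probe set did not pass. Mad2l1, a spindle checkpoint protein, gave 6.33, 6.35 and 6.62 in control and 6.24, 6.33 and 6.26 in Cre hearts. Its groups were apart by less than the last digit shown, and the difference was -0.16 ± 0.12 (limma adjusted p 0.59). Plk1, the Polo-like kinase of mitotic entry, differed by -0.26 ± 0.16 and the brightest probe set of Bub1b, a checkpoint kinase, by 0.0023 ± 0.15, both with overlapping groups.

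The remaining 17 probe sets of the mitotic and proliferation genes were dim. Of these, 13 (76.5%), from 9 genes, had a higher mean with Cre, against 48.92% of all dim probe sets. Probe sets of the same gene are not independent, and some of the 13 had values below 0. Among all 39 dim member probe sets, the groups did not overlap in 9 (23.1%), 8 higher and 1 lower with Cre, against 13.4% of all dim probe sets (6.46% higher and 6.97% lower). Mki67, the gene of the proliferation antigen Ki-67, gave 4.42, 5.39 and 4.76 in control and 5.27, 4.79 and 5.42 in Cre hearts, with wide overlap and a difference of 0.30. For Top2a, the topoisomerase that untangles replicated DNA, the brightest probe set gave 3.56, 4.52 and 3.80 in control and 5.11, 4.23 and 4.98 in Cre hearts. The lowest Cre heart fell within the range of the control hearts, so these groups overlapped. A second probe set of Top2a gave 3.38, 2.63 and 3.57 against 3.80, 3.82 and 4.35, without overlap and higher with Cre. Birc5, the survivin of the chromosomal passenger complex, gave 3.02, 3.33 and 3.09 in control and 4.06, 2.73 and 4.27 in Cre hearts. There 2 Cre hearts were the highest and 1 the lowest of all 6.

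Bub1, another checkpoint kinase, differed by -0.0043 in its brighter probe set, and its dimmer one gave 1.54, -0.19 and 1.02 in control and 1.78, 2.47 and 1.64 in Cre hearts, without overlap. The passenger kinase gene Aurkb differed by 0.28 and -0.20 in its 2 probe sets, and the spindle pole kinase gene Aurka by 0.33 in the brighter one. Cenpe, a kinesin of the kinetochore, differed by -0.25 and 0.23. Of the dim member probe sets, 5 had a value below 0 on at least 1 array (of Aurka, Bub1, Bub1b, Cdk2 and Top2a). The widest differences lie among them, from -7.01 for Cdk2 to 7.40 for Bub1b, and in both 2 of the 3 hearts of 1 group had values far below 0.

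**Figure D2:**
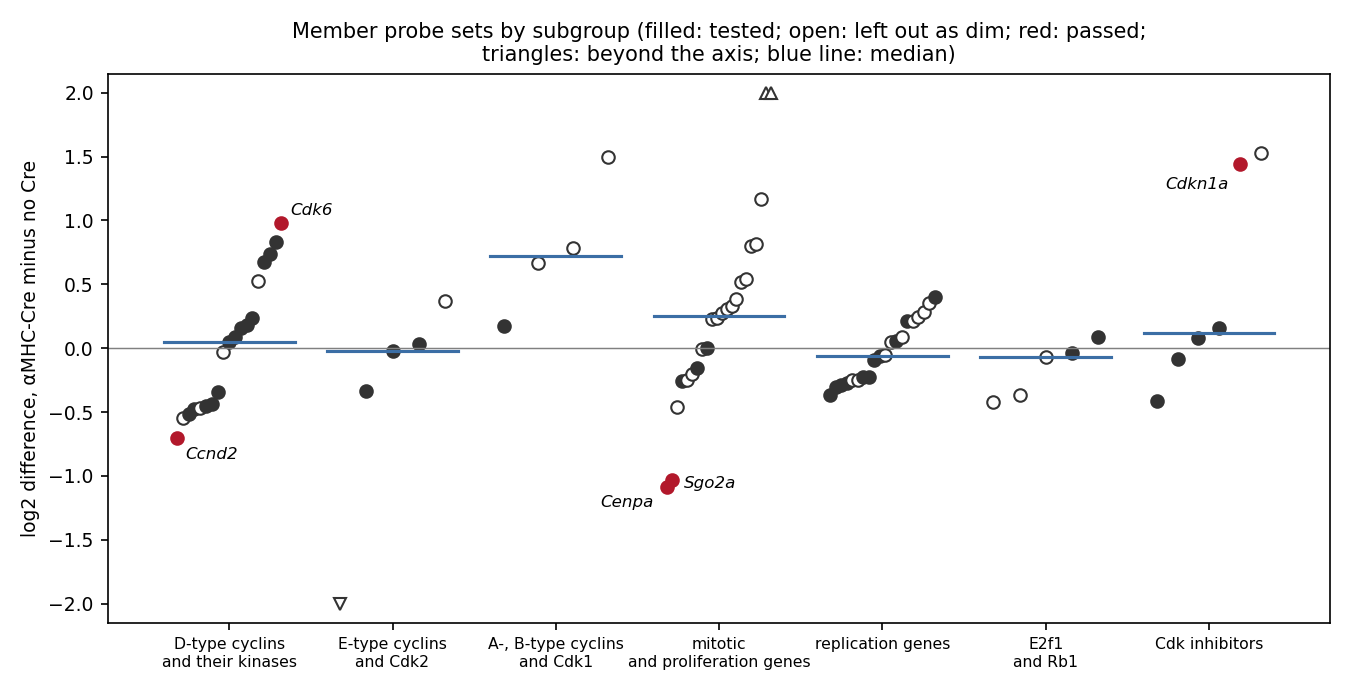
Log2 difference (mean of 3 Cre hearts less mean of 3 control hearts) of all 81 member probe sets by group, with filled points for tested and open points for dim probe sets, red for those that passed and a blue line for the median of each group. The medians of the groups lie between -0.07 and 0.26 except that of the A- and B-type cyclins and Cdk1, at 0.72, and triangles mark values beyond the axis.

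The A- and B-type cyclins and Cdk1, which run the later phases of the cycle, were measured by 4 probe sets, of which 3 were dim, and all had a higher mean with Cre. Cdk1 gave 4.06, 4.51 and 4.26 in control and 4.85, 4.82 and 5.16 in Cre hearts. Ccnb2, the cyclin B2 gene, gave 4.72, 4.11 and 3.70 in control and 4.82, 4.92 and 5.13 in Cre hearts. Neither gene's groups overlapped, and the differences of 0.67 and 0.78 did not pass when limma was run without the filter (adjusted p 0.20 and 0.35). The dim probe set of Ccna2, the cyclin A2 gene, gave 2.95, 2.90 and 3.595 in control and 4.76, 4.39 and 4.79 in Cre hearts, a difference of 1.498 without overlap. Its limma adjusted p without the filter was 0.086, and 0.013 with trend and robust settings, the alternative chosen after seeing the data. The brighter, tested probe set of Ccna2 gave 6.31, 6.74 and 6.36 in control and 6.75, 6.61 and 6.56 in Cre hearts. There the groups overlapped and the difference was 0.17 ± 0.14 (adjusted p 0.61), so the 2 probe sets of Ccna2 disagree in size.

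The D-type cyclins couple growth signals to the cycle. Ccnd1, the cyclin D1 gene, has 3 tested probe sets, and the brightest gave 9.23, 8.51 and 9.004 in control and 9.58, 9.36 and 9.999 in Cre hearts. The second gave 8.13, 7.48 and 7.85 against 8.45, 8.29 and 8.73, and the third gave 7.52, 6.38 and 7.05 against 7.84, 7.53 and 8.08. In each of them the lowest Cre heart lay just above the highest control heart. The differences were 0.74 ± 0.22, 0.67 ± 0.18 and 0.83 ± 0.27, and none passed (limma adjusted p 0.095, 0.074 and 0.12). The second of them passed in 6 of the alternatives, among them the fit without the first control heart (adjusted p 0.045), in which the third also passed (0.038). The brightest passed in 1 alternative, with 64 added (0.0492). The mean of the 3 probe sets differed by 0.75 ± 0.22 and did not pass (adjusted p 0.074).

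Ccnd2, the cyclin D2 gene, has 7 probe sets, and all of them had a lower mean with Cre, by 0.34 to 0.70. They measure 1 gene and are not independent. The brightest gave 9.52, 9.55 and 9.95 in control and 9.37, 9.28 and 9.35 in Cre hearts, without overlap but also without passing (-0.34 ± 0.14, limma adjusted p 0.25). The one that passed (1416123_at) is the dimmest of the 6 tested, with 6.28, 5.81 and 6.11 in control and 5.38, 5.16 and 5.56 in Cre hearts. Its groups did not overlap and the difference was -0.70 ± 0.16 (adjusted p 0.036). That call was lost without the first (0.12) or the third control heart (0.093) and without the first (0.099) or second Cre heart (0.15). It was also lost with quantile normalization (0.056), without the filter (0.20) and with 64 added (0.063), where the difference was -0.32. As the mean of its tested probe sets, Ccnd2 differed by -0.49 ± 0.14 (adjusted p 0.078). Ccnd3, the cyclin D3 gene, gave 8.47, 8.46 and 8.74 in control and 8.79, 8.81 and 8.77 in Cre hearts, with a narrow gap (0.23 ± 0.12, adjusted p 0.37). Its 2 dim probe sets differed by -0.03 and -0.54.

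Of the partner kinases, Cdk6 has 3 probe sets. The brightest gave 9.57, 9.36 and 9.71 in control and 9.77, 9.66 and 9.70 in Cre hearts, where the groups overlap (0.16 ± 0.13, limma adjusted p 0.60). The second (1435338_at) gave 6.35, 6.22 and 7.00 in control and 7.66, 7.36 and 7.49 in Cre hearts. All Cre hearts were higher, and the difference of 0.98 ± 0.20 passed (adjusted p 0.024). The call was lost without the first (0.077) or second control heart (0.068) and without the first (0.088), second (0.074) or last Cre heart (0.059), and without the filter (0.19). As the mean of its tested probe sets, Cdk6 differed by 0.57 ± 0.15 and did not pass (adjusted p 0.055). The dim probe set of Cdk6 differed by 0.52 without overlap. The 3 probe sets of Cdk4 differed by 0.05 to 0.18, and none passed (0 at an unadjusted p under 0.05).

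**Figure D3:**
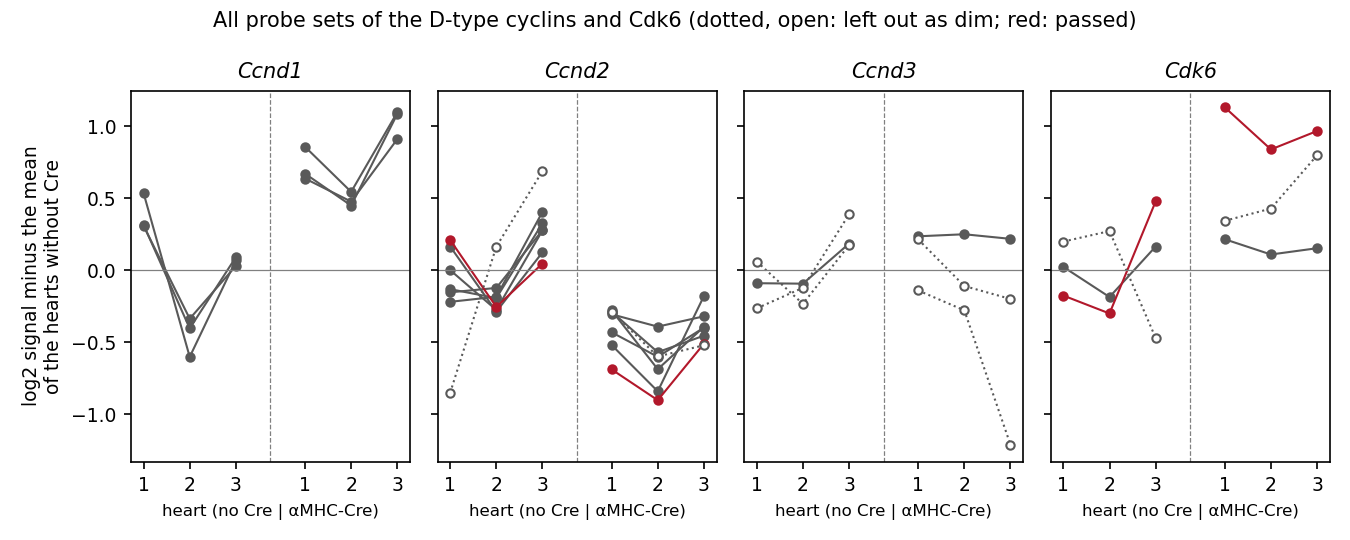
Log2 signal of every probe set of Ccnd1, Ccnd2, Ccnd3 and Cdk6 in each of the 6 hearts, relative to the mean of that probe set in the 3 control hearts, with 1 line per probe set. The 3 probe sets of Ccnd1 have higher and the 7 of Ccnd2 lower means with Cre, of which 1 of Ccnd2 passed, while those of Ccnd3 differ in direction and those of Cdk6 in size.

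Cyclin E with Cdk2 starts DNA synthesis. The brighter probe set of Ccne1 gave 8.05, 8.31 and 8.00 in control and 7.82, 8.52 and 8.10 in Cre hearts, with groups that overlap (0.03 ± 0.18). Ccne2 differed by -0.34 ± 0.18 and the tested probe set of Cdk2 by -0.02 ± 0.15. None of these 3 passed limma (adjusted p 0.39 to 0.96, and 0 at an unadjusted p under 0.05). E2f1, an activating E2f factor, gave 7.84, 8.35 and 8.08 in control and 7.97, 8.25 and 8.30 in Cre hearts in its brightest probe set. Rb1, the retinoblastoma protein gene, gave 8.50, 8.31 and 8.75 against 8.62, 8.38 and 8.45. Both overlapped, with differences of 0.09 ± 0.16 and -0.04 ± 0.14 (limma adjusted p 0.85 and 0.94).

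The replication group holds the helicase subunits Mcm2 to Mcm7 and Pcna, the sliding clamp of DNA polymerases. None of its 11 tested probe sets passed limma (2 at an unadjusted p under 0.05), and the median difference over all 20 was -0.06. Pcna gave 9.98, 10.21 and 10.12 in control and 9.95, 9.71 and 9.77 in Cre hearts, with a narrow gap (-0.29 ± 0.12, limma adjusted p 0.26). Mcm6 gave 6.82, 6.20 and 6.41 in control and 6.97, 6.84 and 6.83 in Cre hearts in its tested probe set, again with a narrow gap (0.40 ± 0.16, adjusted p 0.24). All 4 probe sets of Mcm7 overlapped, with differences of -0.37 to -0.22. The helicase subunits had no common direction: the mean with Cre was lower in the brightest probe sets of Mcm2, Mcm4 and Mcm7 and higher in those of Mcm3, Mcm5 and Mcm6, none past the test.

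Over all 81 probe sets the groups did not overlap in 27 (33.3%), from 19 genes, against 19.5% of all probe sets on the array. Of these, 16 were higher and 11 lower with Cre, against 9.44% and 10% of all probe sets. Among the 42 tested, 18 did not overlap (42.9%), 8 higher and 10 lower, against 23.5% of all tested probe sets (11.4% higher and 12.1% lower).

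Other genes of the cycle were taken from a list of 195 genes, of which 191 have a probe set and 147 were tested through the brightest one. Of these, 3 rose and 3 fell, or 4.08%, against 6.24% of all genes, and the median difference of the 191 was 0.01. After quantile normalization 3 rose and 7 fell. Cdc7, the kinase that fires replication origins together with Dbf4, gave 4.10, 4.14 and 4.13 in control and 8.34, 7.46 and 8.10 in Cre hearts. All Cre hearts were above the control hearts, by 3.85 ± 0.20 in that probe set and by 2.84 ± 0.22 in the other (limma adjusted p 3.4e-05 and 0.00024). The control signals of both probe sets lie below the filter's limit of 5.16, so Cdc7 was tested only through its signal in the Cre hearts, and the sizes of these differences rest on a dim control level. The brighter probe set of Dbf4, its regulatory partner, was dim, at 4.40, 4.38 and 4.95 in control and 5.21, 4.63 and 4.79 in Cre hearts, which overlap. Gins1, a subunit of the replicative helicase, fell by 0.56 ± 0.11 and Mcm8, a helicase used in recombination, by 0.49 ± 0.12 (limma adjusted p 0.023 and 0.047).

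Hipk2, a kinase that phosphorylates p53, rose by 0.69 ± 0.12 in its brightest probe set (limma adjusted p 0.014), from 10.44, 10.39 and 10.18 in control to 11.15, 10.96 and 10.97 in Cre hearts, and 5 of its 6 tested probe sets rose. Plk2, a Polo-like kinase and p53 target, rose by 0.67 ± 0.16 (adjusted p 0.0496). Cdc25c, the phosphatase that activates Cdk1, fell by 0.93 ± 0.20 (adjusted p 0.029), with Cre hearts all below the filter's limit. Cdc25c was therefore tested only through its signal in the control hearts, and the size of its difference rests on a dim Cre level. Of these 6 calls, that of Cdc7 held with any 1 heart omitted, though there too it was tested only through its signal in the Cre hearts. The others were each lost without 2 or more of the hearts, at a limma adjusted p of up to 0.054 for Hipk2, 0.095 for Gins1, 0.18 for Mcm8, 0.15 for Plk2 and 0.096 for Cdc25c. The list had 3 calls without the first control, second control or first Cre heart, 2 without the last Cre heart and 1 without the second.

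Since Cdkn1a is a p53 target, 30 other targets were examined, of which 28 have a probe set and 26 were tested. Of these 3 rose and 0 fell (11.5%, against 6.24% of all genes), with a median difference of 0.15. Phlda3, an inhibitor of Akt, gave 7.36, 7.18 and 7.45 in control and 8.54, 8.53 and 8.90 in Cre hearts. It rose by 1.33 ± 0.14 without overlap (limma adjusted p 0.0011, and 0.0029 to 0.0076 with 1 heart omitted). Eda2r, a receptor of the tumour necrosis factor family, rose by 0.86 ± 0.21 (adjusted p 0.0496), and Plk2 is the third. The calls of Eda2r and Plk2 were each kept in 1 of the 6 fits that omit a heart, and 1 gene was called without the first control heart or with any 1 Cre heart omitted. At an unadjusted p under 0.05, for which no share of all genes was counted, 6 of the 26 were higher and 1 was lower. Beside the 3 that passed, these are Zmat3 (0.49 ± 0.17), Sesn2 (0.33 ± 0.13), Polk (0.55 ± 0.24) and Gadd45a (-0.58 ± 0.23), with limma adjusted p of 0.16 to 0.26. In the fit without the second control heart, Gadd45a passed as lower with Cre (limma adjusted p 0.031). The groups did not overlap in 8 of the 26 (30.8%), all higher with Cre, against 26.1% of genes by the brightest tested probe set (13.2% higher and 12.9% lower). Perp (0.38 ± 0.18) and Rps27l (0.30 ± 0.14) are among them. Mdm2, the ubiquitin ligase that p53 induces, gave 8.69, 8.70 and 9.03 in control and 9.10, 8.86 and 8.85 in Cre hearts. Ccng1, the cyclin G1 gene, gave 12.65, 12.51 and 12.71 against 12.62, 12.55 and 12.67. Both overlapped and did not pass (0.13 ± 0.14 and -0.01 ± 0.11), and Dbf4 and all p53 targets named here that did not pass were named after their values were seen.

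**Figure D4:**
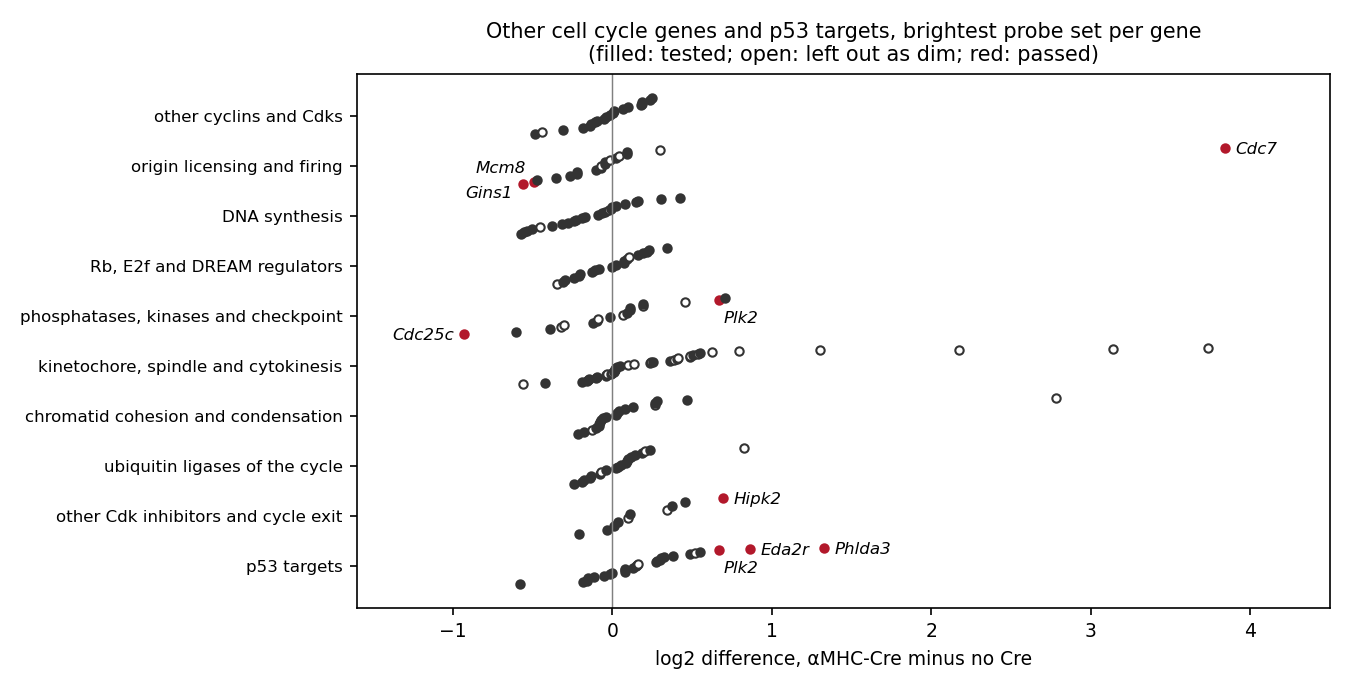
Log2 difference (mean of 3 Cre hearts less mean of 3 control hearts) of the brightest probe set of each gene in 9 groups of other cell cycle genes and in the p53 target list, with filled points for tested, open for dim and red for those that passed. The point of Cdc7, at 3.85, rests on control signals below the filter's limit of 5.16.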

How the data were processed

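The deposited table holds log2 signals from PLIER, a summary of each probe set's probes, per the submitters' processing notes. How PLIER was set and whether arrays were normalized is not stated there, and base 2 is inferred from the values. Array medians differed by at most 0.1, so no further normalization was applied. Of 45101 probe sets, 64 are controls, and the dimmest 40% of the rest by mean were also dropped, leaving 27022. The main test was limma's moderated test (version 3.58.1, R 4.3.3; two-sided, no covariates, Benjamini-Hochberg over all tested probe sets, threshold 0.05). Dim probe sets are given with values and, where stated, with the same fit on all probe sets except controls.

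Gene names came from the platform annotation (34945 probe sets with 1 symbol, 932 with several, 9160 with none), and only those with 1 were named. A RefSeq gene table of GRCm38.p6 held 34741 of these by Entrez number, and 0 symbols needed an update. The members and lists were chosen with earlier results of these data known. All members are named, and from the other 2 lists the genes that passed, with others named where they complete a statement. The number of arrays limits the precision. Alternatives covered normalization, filter, offsets of 16 or 64, variance settings, array weights, threshold, gene representation, the replicate number as a block and leaving out each heart. The procedure was tested on simulated data.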

Additional observations from a re-analysis of the deposited data

How the results depend on the processing

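Of the 5 member probe sets that passed, those of Cdkn1a, Cenpa and Sgo2a kept direction and call in 16 of 17 alternatives, that of Cdk6 in 11 of 17 and that of Ccnd2 in 9 of 16. No called member reversed its direction in any of them. Without the filter the counts were 275 probe sets in all, 0 member probe sets, 0 member genes, 2 genes of the wider cell cycle list and 1 p53 target. At a threshold of 0.10, 2220 probe sets and 14 genes of the wider list passed. That list gave 10 genes with quantile normalization, 11 with 16 or 64 added and 14 with trend and robust settings. It gave 12 with array weights and 12 as the mean over probe sets. Calls also rose over all tested probe sets, from 1412 in the main fit to 1550 with quantile normalization. They were 1720 with 16 added, 1896 with 64 added, 1940 with trend and robust settings and 1737 with array weights. With quantile normalization 1 p53 target passed. Leaving out 1 heart gave 600 to 1075 probe sets in all, 3 to 5 member probe sets, 1 to 4 genes of the wider list and 1 to 3 p53 targets. Member genes stayed at 3 in each of these fits, and the median difference of the member probe sets ranged from 0.0062 to 0.095. In all, 25 of 703 values of tested member probe sets changed sign, none of them called. The alternatives of filter, variance settings, block and threshold leave each difference as it is, so their values could not change sign. With 64 added, 4 member probe sets rose and 2 fell.

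The replicate number as a block gave 909 probe sets in all, 5 member probe sets, 3 member genes, 3 genes of the wider list and 1 p53 target. The correlations of same-numbered hearts' deviations were -0.061, 0.21 and -0.19, and those of differently numbered hearts ranged from -0.20 to 0.27. They do not show a pairing by number, but so few values cannot exclude one. Signals near the low end limit what can be said of the 39 dim member probe sets.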
